A study of Mus musculus with 27 samples.

Results

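The genes described here encode the proteins of the cytosolic ribosome, followed in mouse tibialis anterior muscle through 21 days after volumetric muscle loss (VML). They were taken from the deposited expression table as the protein-coding genes whose symbols begin with Rpl or Rps and a number, together with Rplp0, Rplp1, Rplp2 and Rpsa, and without the S6 kinase genes (Rps6k). This rule found 94 of 54532 genes, hereafter the members. Of these, 46 encode the standard proteins of the large subunit and 31 those of the small subunit, and these 77 are called canonical. The other 17 comprise 9 paralogs or proteins with related names, among them the muscle paralog Rpl3l, and 8 symbols with the suffix -ps. That suffix marks pseudogenes, but the table lists these 8 as protein-coding.

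A ribosome holds 1 copy of most of its proteins, so cells make them in a coordinated manner, and many of their messages begin with a C followed by a run of pyrimidines at the 5′ end. This terminal oligopyrimidine (TOP) motif places their translation under control of the mTOR pathway, which couples ribosome production to growth. Skeletal muscle is unusual in that its fibres replace the ubiquitous Rpl3, a protein near the peptidyl transferase centre, with the striated-muscle paralog Rpl3l. Injury of muscle brings in leukocytes and fibroblasts and activates satellite cells, which are all cell types that use Rpl3.

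The muscles came from male C57BL/6 mice of 8 weeks, in which 40% of the tibialis anterior was excised. The groups held 5 uninjured samples, 5 taken on day 3, 6 each on days 7 and 14, and 5 on day 21, all sequenced as bulk polyA RNA. The paper describes excision on both sides and the public record on one side, and the uninjured group is labelled as control with no statement of a sham operation. Each time point comes from different muscles, and nothing in the labels says whether samples of one group came from separate mice, so the p-values measure the spread between these samples. The unit is FPKM, fragments per kilobase of gene with a scaling for each sample, which is a per-length scale. Levels of different genes are set side by side with the limit that they depend on the gene length used. They also depend on how reads with several matches were counted.

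The starts of several messages show the motif that the family is known for. In the RefSeq promoter table (GRCm38.p6), 66 members had an entry. A TOP-like start, meaning C at the annotated start followed by at least 4 pyrimidines (C or T) on the sense strand, was present in 13 of 57 canonical members (22.8%), against 813 of 27025 genes of the whole table (3.01%) and 0 of 69 genes for mitochondrial ribosomal proteins. The sequences below run from 10 bases before the annotated start to 19 after it, 5′ to 3′ on the gene's own strand, with the run in capitals. Rps6, Rpl15, Rpl35 and Rps18 are shown because their runs are among the longest, and Rpl3l because it is the member that moved against the family.
Rps6, chr4:86857348-86857377, minus strand: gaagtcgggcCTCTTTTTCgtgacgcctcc
Rpl15, chr14:18270967-18270996, minus strand: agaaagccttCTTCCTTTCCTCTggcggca
Rpl35, chr2:39005112-39005141, minus strand: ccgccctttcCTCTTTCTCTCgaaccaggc
Rps18, chr17:33955646-33955675, minus strand: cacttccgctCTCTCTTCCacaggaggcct
Rpl3l, chr17:24727816-24727845, plus strand: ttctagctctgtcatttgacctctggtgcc
The run was 9 bases in Rps6, 13 in Rpl15, 11 in Rpl35 and 9 in Rps18, and Rpl3l had none at this start. At the GENCODE M21 starts of the same genes, Rps18 kept a run of 7 bases, whereas Rps6, Rpl15 and Rpl35 had a run of 0, so these 3 examples hold for the RefSeq starts only. Annotated starts can lie some bases from the true ones. With the starts of GENCODE M21 transcripts, chosen after seeing the data, 22 of 77 canonical members (28.6%) had such a start, against 5.12% of all protein-coding genes. Of the genes for mitochondrial ribosomal proteins, 5 of 78 (6.41%) then had one. When a run of C and at least 4 pyrimidines was accepted anywhere within 10 bases of the RefSeq start, the shares were 59.6% of canonical members and 34.4% of all genes. Under that wider rule, 31 of 69 mitochondrial ribosomal genes (44.9%) also had a run, so their count of 0 holds for the exact RefSeq start only. A match describes the letters only and gives no evidence of how these messages were translated here.

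Without injury, the canonical members spanned a wide range of levels. Their mean FPKM had a median of 155.3 over the 77 genes, with quartiles of 75.7 and 268.9. The highest was Rplp1, a protein of the acidic stalk that recruits translation factors, with 1295 to 2224 FPKM in the 5 samples (mean 1617 ± 371 SD). The lowest was Rps10, with 0.126 to 0.769 FPKM, and Rpl24 and Rpl13a were next with means of 0.58 and 3.31 FPKM. These very low values sit beside a property of the sequences. Of the 50-base windows of the Rpl24 coding sequence, 100% also occur in transcripts of other genes, as do 89.1% for Rps10 and 97.3% for Rpl13a. Over the 77 canonical members the median was 90.3%, so reads of this family can be assigned to several places, and levels of single members depend on how the aligner and counter treated them. Rps10 and Rpl24 rest on 5 to 120 and 5 to 28 reads per sample, and no fold change of theirs is interpreted. The order of the members was similar at all time points. Across the 77 members, which share libraries, Spearman's rho of the mean FPKM with that of the uninjured muscles was 0.976 at day 3 and 0.988 at day 21.

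The members took 1.74 to 2.20% of all reads in the uninjured muscles and 3.43 to 6.00% at day 3. All 5 samples of day 3 lay above all uninjured ones. At day 7 the share was 2.60 to 5.32%, with every sample above the uninjured range. At day 14 it was 1.82 to 3.20%, and at day 21 it was 1.99 to 2.82%, and in both groups 1 sample lay within the uninjured range. The total reads, recovered from FPKM and gene length, were 14376395 to 24436763 per sample. A share of reads depends on the other transcripts in the sample, which include the very abundant ones of muscle fibres and mitochondria. In the deposited FPKM, the reads to which each sample was scaled were 0.747 to 1.48 times its own total. No source used here names this factor between samples. The factors were lowest in the uninjured muscles (0.747 to 0.819) and 1.14 to 1.48 at day 3. The rise on the FPKM scale was therefore smaller than that in the share of reads.

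On that scale the level of the family in a sample was taken as the median of log2(FPKM + 1) over the canonical members. It was 7.48, 7.22, 7.53, 7.02 and 7.26 in the 5 uninjured muscles and 7.95, 8.03, 7.98, 8.04 and 7.70 at day 3, so that the groups did not overlap. It ranged from 7.13 to 7.89 on day 7, from 6.43 to 7.79 on day 14 and from 7.20 to 7.65 on day 21, and these groups overlapped the uninjured one. Low single samples contributed to this overlap. Day 7 replicate 1 (7.13) and day 14 replicate 1 (6.43) were the lowest of their groups in 72 and 74 of the 77 members, and day 3 replicate 5 (7.70) in 62. The first pair also had the largest scaling factors of their groups, 1.44 and 1.33, and a larger factor lowers FPKM. By share of reads on the members, day 14 replicate 1 (1.82%) and day 3 replicate 5 (3.43%) were lowest of their groups. Day 7 replicate 1 (2.87%) was not, since replicate 6 had 2.60%.

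**Figure D1:**
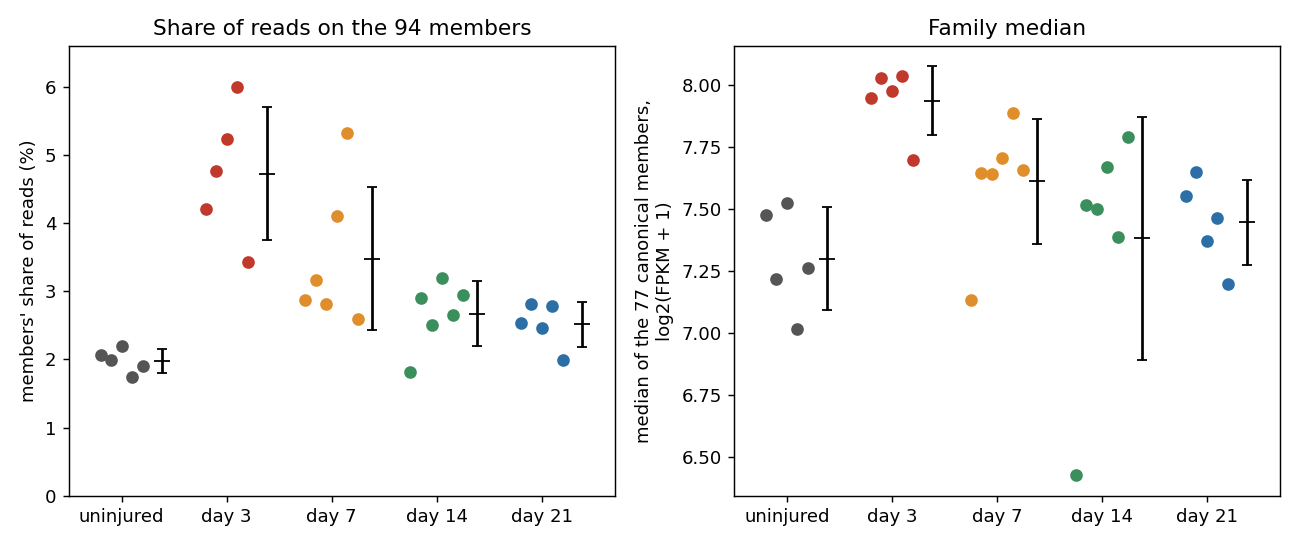
The left panel shows the percent of each sample's reads that fell on the 94 members, and the right panel the median log2(FPKM + 1) of the 77 canonical members, by group. Each point is a sample and the black bars are the mean ± SD; day 3 lies above uninjured in both panels, and day 14 replicate 1 is the lowest point on the right at 6.43.

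These samples were bulk tissue, in which fewer cells of a type and less RNA per cell cannot be told apart. Markers of macrophages, fibroblasts and muscle fibres also changed at day 3. The summed FPKM of 7 macrophage and monocyte markers ranged from 16.2 to 24.8 in uninjured muscle and from 312.8 to 2144 on day 3. On day 7 the range was 45.7 to 2007, and on day 21 it was 31.1 to 57.0. All 7 markers were higher in every day 3 sample than in any uninjured one. The sum of 8 muscle fibre markers lay between 60703 and 76821 without injury and between 17895 and 40325 on day 3, where all 8 were lower without overlap. The 4 fibroblast markers summed to 35.0 to 91.3 without injury and 261.4 to 508.8 at day 3, and 3 of them were higher without overlap. Of 2 satellite cell markers, 1 was higher without overlap at day 3. Of 3 endothelial, 2 Schwann cell, 3 erythroid and 4 lymphocyte markers 0 were, and 1 endothelial and 1 Schwann cell marker were lower without overlap. Of all 14630 genes tested, 19.8% were higher without overlap at day 3. The share of all genes that were lower without overlap is not reported here. No marker was at 0 in every sample of a group. Of the samples with the lowest family level of their groups, day 3 replicate 5 also had the lowest macrophage sum (312.8), while day 7 replicate 1 (255.3) and day 14 replicate 1 (90.9) did not. The part of these cells in the results below was not tested.

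At day 3 most members rose. Tested with limma over the 14630 genes that reached 0.5 FPKM in 5 or more samples, 54 of the 90 tested members were higher and 1 was lower at a Benjamini-Hochberg adjusted p under 0.05. Over all genes, 23.4% were higher and 19.8% lower in this comparison. Of the canonical members 51 of 77 were higher and 0 lower, and the log2 fold changes of all 77 were above 0, with a median of 0.66, or 1.58-fold. In 41 of the 77, every sample of day 3 lay above every uninjured sample, which held for 19.8% of all genes tested. The median over all genes was 0.01. The 4 members below the filter on low values were Rpl10l, Rpl36-ps4, Rpl9-ps1 and Rpl13a-ps1, and the first pair of these was at 0 in all 27 samples.

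The size of this rise depended on how samples were scaled to each other, while the canonical median was above 0 in each scaling. With FPKM rescaled to a common sum, 87 members were higher at day 3, against 6942 of all 14630 genes. The canonical median was then 1.48, but the median of all genes also moved, to 0.62. Relative to the median of all genes, the canonical median was 0.65 in the deposited scaling, 0.87 with the common sum, 0.91 with each sample's own total of reads and 1.09 with quantile normalization.

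The 2 subunits had the same median change. The large subunit had 32 of 46 members higher with a median log2 fold change of 0.66, and the small subunit 19 of 31, also with a median of 0.66. Values ranged from 0.12 (Rpl24) to 2.73 (Rpl3) in the large subunit, and from 0.18 (Rps14) to 1.03 (Rps12) in the small subunit. The quartiles of the 77 canonical members were 1.38-fold and 1.73-fold.

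**Figure D2:**
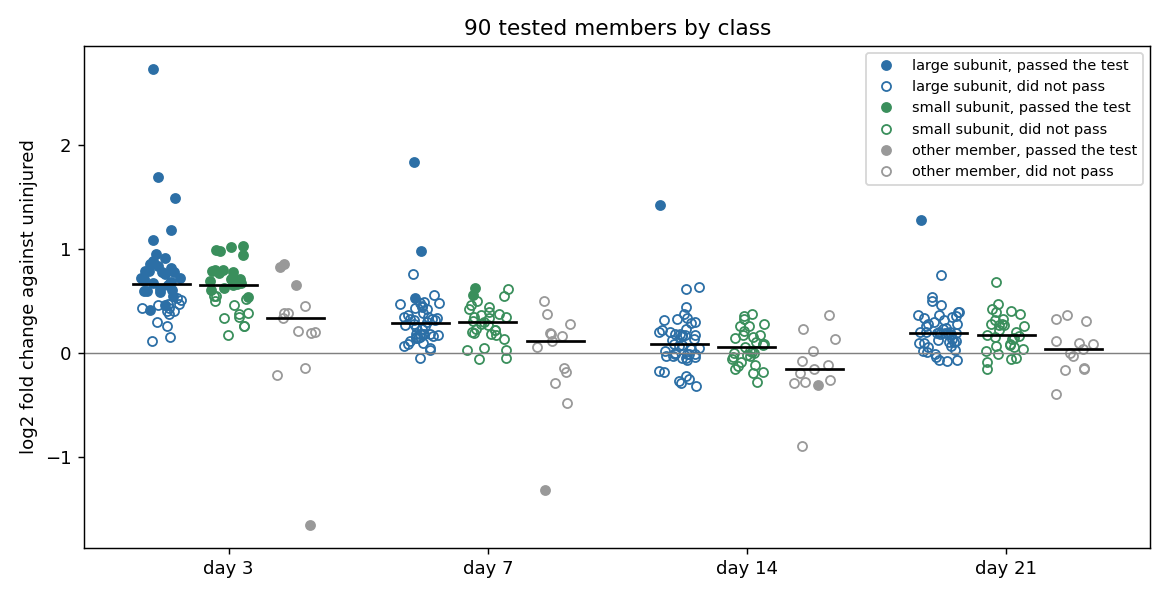
Each point is 1 of the 90 tested members, with its log2 fold change in FPKM + 1 against uninjured muscle on the y axis, by time point and class. Filled points passed the limma test at an adjusted p under 0.05, open points did not, and black lines are class medians; the large and small subunit medians were both 0.66 at day 3 and 0.20 and 0.18 at day 21.

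Among the large subunit proteins, Rpl3 had the largest change at day 3 and is described with its paralog below. Rpl13a, which is also known for a role in translational silencing in myeloid cells, was 3.76, 2.91, 3.63, 3.65 and 2.62 FPKM in the uninjured muscles and 14.7, 11.8, 15.7, 17.1 and 7.40 at day 3. The groups did not overlap, and the log2 fold change was 1.69 ± 0.26 (SE; adjusted p = 1.76e-05). Rpl7a, a protein of the solvent-exposed side, spanned 14.4 to 33.3 FPKM in uninjured muscle and 27.2 to 97.2 on day 3, where 1 sample fell within the uninjured range (1.49 ± 0.41, adjusted p = 0.00485). Rpl17 had a log2 fold change of 1.18 ± 0.34 (adjusted p = 0.00628), although uninjured replicate 2, at 119 FPKM, lay above 2 of the day 3 samples. Rpl41, the smallest ribosomal protein, lay between 276 and 546 FPKM without injury and between 534 and 1232 on day 3 (1.09 ± 0.38, adjusted p = 0.0213). Its test was lost under 4 of 39 alternatives, whose adjusted p ran from 4.71e-04 to 0.0598 over all of them. Of the coding windows of Rpl13a, Rpl7a and Rpl17, 93.3 to 100% also occur in other genes, as for the family in general, against 5.56% of those of Rpl41.

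The members with the smallest changes at day 3 were Rpl24, Rpl36, Rps14, Rps10 and Rpl4, and none of them passed the test. Rpl36 spanned 641 to 1259 FPKM in uninjured muscle and 933 to 1156 on day 3, with all 5 injured samples inside the uninjured range (0.16 ± 0.32, adjusted p = 0.72). Rps14, the small subunit protein known from the 5q- syndrome, lay between 332 and 470 FPKM without injury and between 341 and 463 on day 3 (0.18 ± 0.20, adjusted p = 0.505). Rpl4, a large subunit protein that reaches into the exit tunnel, spanned 329 to 388 in uninjured muscle and 312 to 500 on day 3, with 4 samples above and 1 below the uninjured range (0.26 ± 0.18, adjusted p = 0.258). All 3 were higher with FPKM rescaled to a common sum, with each sample's own total and with quantile normalization.

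Several members with known roles outside the ribosome were looked at after their values had been seen. Rpl5 and Rpl11, which bind Mdm2 as part of the 5S ribonucleoprotein particle, were higher at day 3, with log2 fold changes of 0.68 ± 0.18 (adjusted p = 0.00406) and 0.78 ± 0.22 (adjusted p = 0.00557). Rps6, the substrate of the S6 kinases, was 0.72 ± 0.19 higher (adjusted p = 0.00331), with all 5 samples above the uninjured range. Rps19, the gene most often mutated in Diamond-Blackfan anaemia, lay between 32.1 and 43.3 FPKM without injury and between 58.4 and 96.6 on day 3 (1.02 ± 0.21, adjusted p = 3.87e-04). Rpsa, also known as the laminin receptor, was 0.61 ± 0.23 higher (adjusted p = 0.0346). Of the acidic stalk, Rplp2 was higher (0.60 ± 0.23, adjusted p = 0.0363). Rplp0 and Rplp1 had log2 fold changes of 0.41 ± 0.20 and 0.46 ± 0.26 that did not pass (adjusted p = 0.102 and 0.164), but both passed under the common sum, own totals and quantile normalization. The difference between the 3 genes was not tested.

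Fewer members passed the test at the later time points. At day 7, 5 of 90 members were higher and 1 lower, against 15% higher and 14.4% lower over all genes, and the median log2 fold change of the canonical members was 0.30. The 5 were Rpl3, Rpl13a, Rpl27a, Rps16 and Rps19. At day 14, Rpl3 was the 1 member that was higher and Rpl7l1 the 1 that was lower, against 9.02% and 11.3% of all genes, and the median was 0.08. The call of Rpl7l1 was lost under 21 of 39 alternatives and its direction turned under 2 more. At day 21, 1 member was higher, again Rpl3, and 0 were lower, against 1.74% and 1.69% of all genes, with a canonical median of 0.20. An unadjusted limma p under 0.05 was reached by 4 of the 90 members, against 2898 of all 14630 genes. With the common sum, own totals and quantile normalization it was reached by 29, 31 and 34 members, against 1676, 2097 and 2609 genes. The canonical medians were then 0.39, 0.39 and 0.32. The counts of days 7 and 14 rested on the 2 samples that were low on the FPKM scale. Without day 7 replicate 1 and day 14 replicate 1 together, chosen after seeing the data, 33 members were higher at day 7 and 19 at day 14, and 66 at day 3. The share of all genes called in that fit is not reported here. The counts of days 7 and 14 rested on the scaling as well. The common sum gave 79 members higher at day 7 and 26 at day 14, against 6372 and 2096 of all 14630 genes.

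Set directly against day 3, 23 members were lower at day 21 and 1 was higher, where 16.2% and 9.23% of all genes were lower and higher. The median log2 difference of the canonical members was -0.44. The lower members included Rpl3 (-1.45 ± 0.29, adjusted p = 7.04e-04), Rpl13a (-0.94 ± 0.26, adjusted p = 0.00933), Rps4x (-0.74 ± 0.19, adjusted p = 0.00531) and Rps6 (-0.72 ± 0.19, adjusted p = 0.00643). The higher one was Rpl3l (1.26 ± 0.39, adjusted p = 0.0186; lost under 3 of 39 alternatives). Leaving out day 14 replicate 1, which enters only through the shared spread, raised the count of lower members to 42. Leaving out day 3 replicate 4, day 3 replicate 3 or day 21 replicate 5 reduced it to 8, 9 and 13. The shares of all genes called in these refits are not reported here.

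At day 21 the largest canonical log2 fold changes against uninjured muscle were those of Rpl3 (1.28), Rpl13a (0.75), Rps27a (0.68), Rpl7a (0.54) and Rpl21 (0.50), of which Rpl3 alone passed the test. Rpl13a was 4.40 to 8.92 FPKM at day 21, with all 5 samples above the uninjured range, but its adjusted p was 0.1. Rps27a, which is translated as a fusion with ubiquitin, was 45.9 to 75.9 FPKM without injury and 66.5 to 144 at day 21 (adjusted p = 0.223). The most negative values were those of Rps27 (-0.15), Rps10 (-0.08), Rpl4 (-0.08), Rplp0 (-0.06) and Rpl15 (-0.06), each smaller than its standard error.

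The pair of Rpl3 and Rpl3l showed opposite changes. Rpl3 (chr15:80077791-80091868, minus strand) was 19, 19.4, 20.5, 16.4 and 15.4 FPKM in the uninjured muscles and 116, 136, 162, 188 and 63.7 at day 3. Rpl3l (chr17:24727820-24736143, plus strand) was 600, 436, 462, 390 and 552 FPKM without injury and 215, 203, 136, 65.0 and 218 at day 3. For neither gene did the 2 groups overlap. Rpl3 was 6.63-fold higher (log2 fold change 2.73 ± 0.29, adjusted p = 2.62e-07) and Rpl3l fell by 1.65 ± 0.39 on the log2 scale (adjusted p = 0.00127). Both calls held under all 39 alternatives, among which the change of Rpl3 ranged from 2.58 to 3.57 and that of Rpl3l from -1.77 to -0.83.

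The later time points were compared with the uninjured muscles in the same way. Rpl3 ranged from 33.8 to 152 FPKM on day 7, from 44.1 to 59.7 on day 14 and from 37.0 to 53.8 on day 21, and in these groups every sample exceeded every uninjured one. Its log2 fold change was 1.84 ± 0.28 on day 7, then 1.42 ± 0.28 on day 14 and 1.28 ± 0.29 on day 21, with adjusted p = 6.06e-05, 0.00145 and 0.0151. The day 21 call was lost under 2 of 39 alternatives, the common sum and own totals, with adjusted p between 4.88e-04 and 0.128 over all of them. Rpl3l was 92.4 to 451 FPKM at day 7, where 2 samples lay within the uninjured range (-1.31 ± 0.37, adjusted p = 0.00985, and 0.0522 when only these 2 groups were fitted). It was 180 to 419 FPKM at day 14 (-0.89 ± 0.37, adjusted p = 0.0876) and 343 to 380 at day 21 (-0.39 ± 0.39, adjusted p = 0.614). All 5 samples of day 21 were below the lowest uninjured sample at 390 FPKM, although the difference was within the error of the fit.

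**Figure D3:**
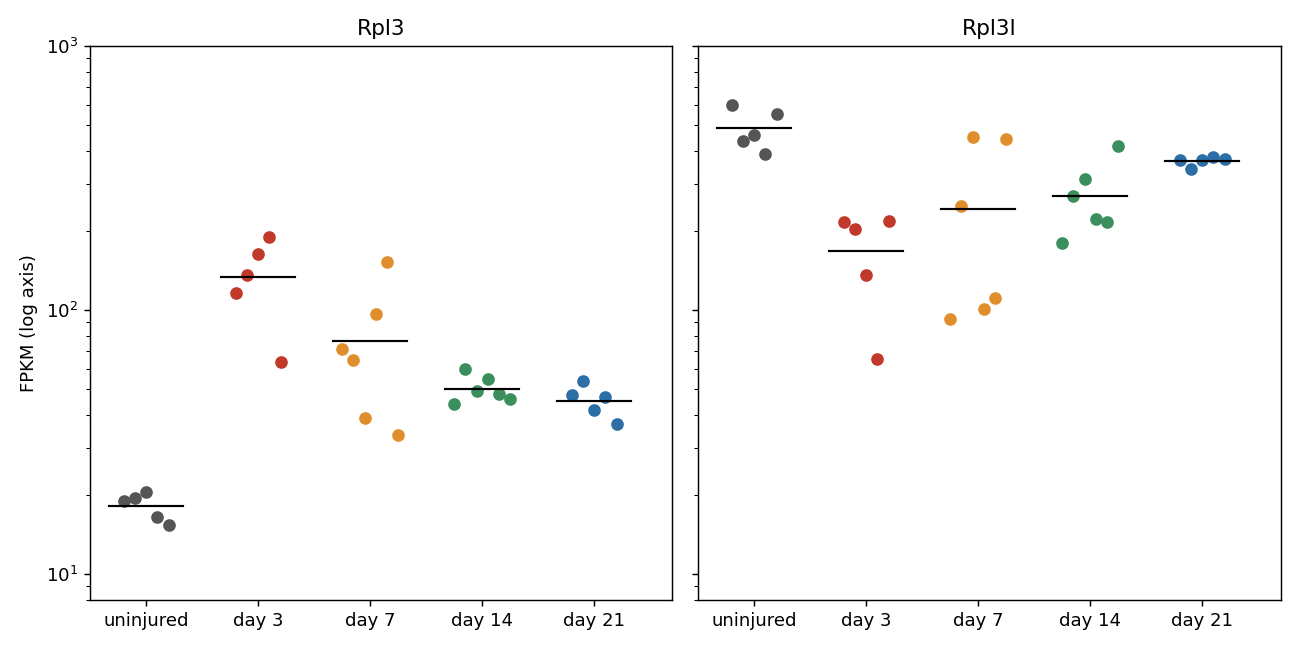
FPKM of Rpl3 (left) and Rpl3l (right) in each sample on a shared log axis, with the group means as black lines. Rpl3 stayed above its uninjured range of 15.4 to 20.5 FPKM in every injured sample, while Rpl3l was below its uninjured range of 390 to 600 FPKM in all samples of days 3 and 21.

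A ratio within a sample does not depend on the scaling between samples. Rpl3l made up 95.7 to 97.3% of the summed FPKM of the pair in the uninjured muscles. Its share was 64.9, 59.9, 45.6, 25.7 and 77.4% in the 5 samples of day 3. On day 7 it ranged from 42.3 to 93.0%, on day 14 from 80.1 to 90.1% and on day 21 from 86.4 to 91.0%. No injured sample reached the uninjured range. The log2 ratio of Rpl3l to Rpl3 was 4.67 ± 0.31 (SD, n = 5) without injury and 0.29 ± 1.24 (n = 5) at day 3, with 1.52 ± 1.79 (n = 6) at day 7, 2.35 ± 0.46 (n = 6) at day 14 and 3.00 ± 0.24 (n = 5) at day 21. In two-sided exact permutation tests each time point differed from uninjured (p = 0.00794 for 5 against 5 and 0.00433 for 6 against 5, the smallest these designs allow; adjusted p = 0.037 at each of the 4 time points over 28 tests of 7 pairs). At day 21 the ratio was still lower by 1.67 on the log2 scale. The coding sequences of the 2 genes are 74.1% identical with a longest shared stretch of 22 bases. Of the Rpl3 coding windows, 95.7% also occur in transcripts of 13 other genes, against 0% for Rpl3l, so the level of Rpl3, and with it the share of each gene in the pair, depends on how reads with several matches were counted. Replicate 4 had the lowest Rpl3l share of day 3 (25.7%) and replicate 5 that of day 7 (42.3%). These samples had the highest macrophage marker sums (2144 and 2007 FPKM) and the lowest fibre marker sums (17895 and 22107) of their groups. At day 21, replicate 2 had the lowest share (86.4%) and the highest macrophage sum (57.0), but not the lowest fibre sum. At day 14, replicate 4 had the lowest share (80.1%), but its macrophage sum (82.3) was below that of replicate 5 (102.5). The part of these cells was not tested.

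The summed FPKM of Rpl3 and Rpl3l was looked at after the single values had been seen, and its direction depended on the scaling. It was 406.0 to 618.5 in the uninjured muscles. It spanned 253.3 to 338.9 on day 3 and 163.4 to 490.5 on day 7. On day 14 the span was 224.1 to 464.6, and on day 21 it was 396.3 to 427.0. At day 3 it was lower by 0.74 on the log2 scale (exact permutation test, two-sided, p = 0.00794; adjusted p = 0.026 over 4 time points). With each sample's own total of reads the difference was -0.08 (exact permutation test, adjusted p = 0.563), and after rescaling to a common sum it was 0.08 (adjusted p = 0.766), so no change of the sum is called.

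The other paralogs gave no call against their partners that held in every form of the comparison. Rps27l, a paralog of Rps27 known as a target of p53, spanned 141 to 180 FPKM in uninjured muscle and 121 to 163 on day 3 (-0.14 ± 0.21, adjusted p = 0.625), and this change turned positive and passed the test under the common sum (0.68, adjusted p = 0.0182) and under own totals of reads (0.52, adjusted p = 0.0373). The log2 ratio of Rps27l to Rps27 was lower by 0.66 at day 3 (exact permutation test, p = 0.00794, adjusted p = 0.037). This call depended on the assignment of reads, because the coding sequence of Rps27 is 100% identical to that of another member, Rps27rt. The uninjured samples held 279, 172, 297, 139 and 235 FPKM of Rps27 and 151, 366, 97.1, 427 and 76.7 FPKM of Rps27rt, and the 2 samples lowest in Rps27 were the 2 highest in Rps27rt. Against the sum of both, chosen after seeing the data, the ratio of Rps27l was lower by 0.24 and did not pass (exact permutation test, p = 0.143, adjusted p = 0.556).

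Rpl22l1, a paralog of Rpl22 that acts in blood cell development, lay between 13.8 and 19.7 FPKM without injury and between 15.5 and 26.1 on day 3 (0.38 ± 0.27, adjusted p = 0.261), while Rpl22 was higher (0.46 ± 0.17, adjusted p = 0.0313; lost under 6 of 39 alternatives). Their log2 ratio differed from uninjured by -0.08 to -0.03 at days 3 and 7, and by -0.22 and -0.26 at days 14 and 21, with exact permutation adjusted p from 0.206 to 1. The ratio of Rpl7l1 to Rpl7 was lower by 0.14 to 0.29 at the 4 time points and passed at none of them after adjustment (exact permutation adjusted p = 0.123 at day 3). Rpl36al and Rpl39l had at most 35 and 38 reads in any sample, and no ratio is interpreted for them. The Rpl36al to Rpl36a ratio was lower by 0.57 at day 3 with a pseudocount of 1 and higher by 0.21 with a pseudocount of 0.1. Rpl39l, at 0 to 1.08 FPKM without injury and 0.147 to 1.73 at day 3, was higher in the limma test (0.66 ± 0.25, adjusted p = 0.0361), a call lost under 11 of 39 alternatives. Rpl10l, a paralog used in the testis, was listed at 0 throughout. Rps4l, which is annotated as a transcribed processed pseudogene and is not a member, had a log2 ratio to Rps4x that was higher by 0.82 at day 3 (exact permutation p = 0.0317, adjusted p = 0.111).

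To see which members moved apart from the family, the family median of each sample was subtracted before the fit. At day 3, 4 members were then higher and 4 lower out of 90, where the same fit called 6.38% of all genes higher and 51.1% lower. The higher members were Rpl3 (2.09 ± 0.28, adjusted p = 3e-06), Rpl13a (1.05 ± 0.22, adjusted p = 2.29e-04), Rps12 (0.39 ± 0.16, adjusted p = 0.0423) and Rps19 (0.38 ± 0.15, adjusted p = 0.0296). The lower ones were Rpl3l (-2.28 ± 0.37, adjusted p = 1.5e-05), Rps27l (-0.78 ± 0.15, adjusted p = 1.02e-04), Rps14 (-0.46 ± 0.16, adjusted p = 0.0156) and Rpl7l1 (-0.43 ± 0.19, adjusted p = 0.0486). At day 7, Rpl3 and Rpl13a were higher and Rpl3l and Rps27l lower relative to the family, against 3.86% and 21.8% of all genes. At day 14 Rpl3 alone was higher (1.34 ± 0.27, adjusted p = 0.00321) and 0 members were lower, against 2.54% and 6.05% of all genes. At day 21 Rpl3 was higher by 1.13 ± 0.28 (adjusted p = 0.048) and 0 members were lower, against 0.342% and 0.403%. This last call was lost when any of 18 of the 27 samples was left out.

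**Figure D4:**
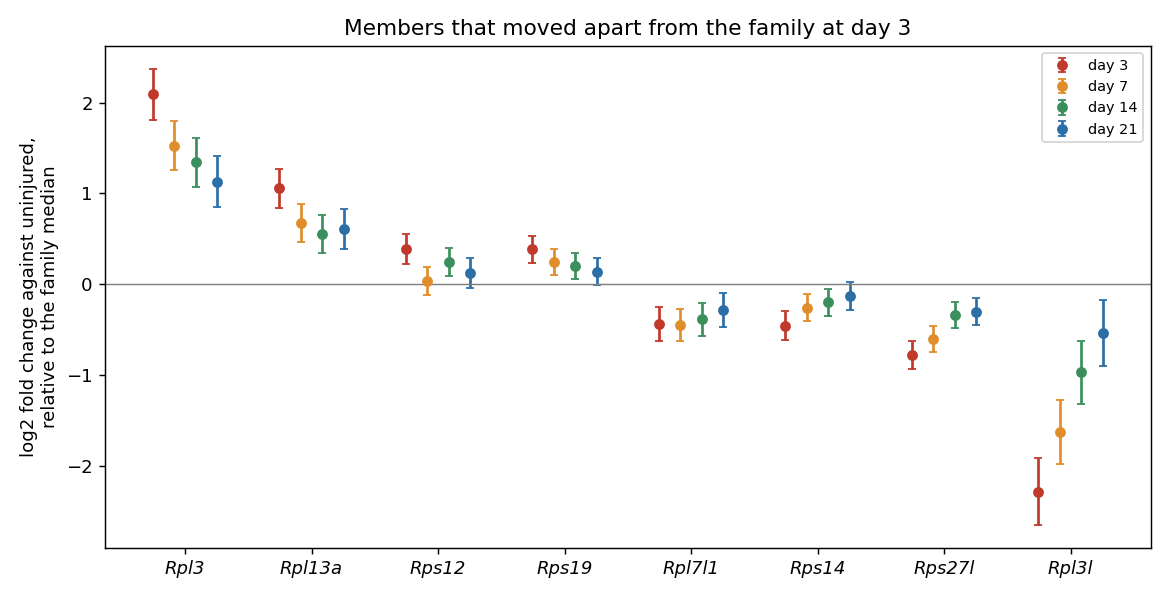
Log2 fold change against uninjured muscle after subtraction of the family median of each sample, for the 8 members that passed the test at day 3, with standard errors as bars and time points in colour. Rpl3 lies at 2.09 and Rpl3l at -2.28 at day 3, and at day 21 they lie at 1.13 and -0.54.

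Of the other members without a -ps suffix, Rps19bp1, which encodes a protein that binds Rps19 and is no part of the ribosome, was 11.4 to 20.9 FPKM without injury and did not pass at day 3 (0.21 ± 0.24, adjusted p = 0.519). Of the 5 tested members with the suffix, Rps12-ps3 (0.85 ± 0.23, adjusted p = 0.0037) and Rpl36a-ps1 (0.82 ± 0.28, adjusted p = 0.02) were higher at day 3. Rpl36a-ps1 had at most 43 reads in a sample. Rps12-ps3 was 123 to 173 FPKM without injury, more than the 63.6 to 89.9 FPKM of Rps12 itself, and its reads and those of Rps12 may not be separable.

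Genes whose products sit on the ribosome but carry other names were also measured. Fau, whose product is cleaved to the small subunit protein eS30, spanned 237 to 348 FPKM in uninjured muscle and 407 to 673 on day 3 (0.91 ± 0.23, adjusted p = 0.00236). Rack1, a scaffold protein bound to the small subunit, lay between 68.9 and 83.7 FPKM without injury and between 88.4 and 143 on day 3 (0.61 ± 0.16, adjusted p = 0.00396). For both, all 5 samples of day 3 were above the uninjured range.

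Of 17 translation factor genes listed for their TOP messages, 8 were higher and 1 lower at day 3, where 23.4% of all genes were higher and 19.8% lower. Under the common sum and own totals, 15 were higher and 0 lower. Of all 14630 genes, 6942 and 6534 were higher and 324 and 618 lower under these 2 scalings, counts that apply to the lists below as well. Eef1a1, the ubiquitous elongation factor 1A, lay between 112 and 136 FPKM without injury and between 551 and 1047 on day 3 (2.60 ± 0.29, adjusted p = 5.63e-07). Pabpc1, the cytoplasmic poly(A)-binding protein, rose by 1.30 ± 0.21 (adjusted p = 3.72e-05) and Npm1, a nucleolar chaperone, by 1.16 ± 0.23 (adjusted p = 3.08e-04). The median over the list was 0.16 in the deposited scaling, and 0.98 and 0.82 under the common sum and own totals, where that of the canonical members was 0.66, 1.48 and 1.32. Of 40 ribosome biogenesis genes, 7 were higher (17.5%, below the 23.4% of all genes) and 3 lower with a median of 0.13. Under the common sum and own totals, 29 were higher and 0 lower, with medians of 0.90 and 0.68. The largest changes were those of the box C/D methyltransferase Fbl (0.86 ± 0.25, adjusted p = 0.00807) and the H/ACA proteins Gar1 (0.79 ± 0.24, adjusted p = 0.00892) and Nhp2 (0.68 ± 0.28, adjusted p = 0.0472), the last of which was lost under 20 of 39 alternatives. Of 15 regulators of ribosomal protein synthesis, 3 were higher and 7 lower in the deposited scaling. Under the common sum 7 were higher and 0 lower, where 6942 of 14630 genes were higher. Under own totals 7 were higher and 1 lower, where 6534 of 14630 genes were higher. Myc, which drives transcription of ribosomal genes, spanned 0.553 to 1.16 FPKM in uninjured muscle and 2.79 to 5.36 on day 3 (1.51 ± 0.28, adjusted p = 1.29e-04). Maf1, a repressor of RNA polymerase III, lay between 54.1 and 67.3 without injury and between 26.5 and 31.9 on day 3 (-0.95 ± 0.16, adjusted p = 4.65e-05), a call lost under the common sum (-0.15, adjusted p = 0.493). Eif4ebp1, the translational repressor that mTOR inactivates, was 0.95 ± 0.26 higher (adjusted p = 0.00414).

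Other large protein families served as a comparison. Of 77 tested genes for proteins of the mitochondrial ribosome, 0 were higher and 44 lower at day 3, against 23.4% and 19.8% of all genes. Their median log2 fold change was -0.52, a sign that turned to 0.27 with FPKM rescaled to a common sum and to 0.11 with each sample's own total. Relative to the median of all genes, the mitochondrial median was below 0 under each of these scalings, between -0.53 and -0.29, where that of the cytosolic family was between 0.65 and 1.09. At day 7, 48 of the mitochondrial ribosomal genes were lower, at day 14, 22, and at day 21, 0. Of all genes, 14.4%, 11.3% and 1.69% were lower on these days. At day 21, 11 of the 77 had an unadjusted limma p under 0.05, against 2898 of all 14630 genes. Under the common sum and own totals, 1 and 3 of the mitochondrial ribosomal genes were lower at day 7, and 0 and 1 at day 14. Of all 14630 genes, these scalings called 210 and 424 lower at day 7, and 117 and 288 at day 14. Of 38 proteasome subunit genes, 5 were higher and 1 lower at day 3, against 23.4% and 19.8% of all genes. Their median was -0.08, which was 0.74 under the common sum and 0.57 under own totals. The difference between the families themselves was not tested.

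**Figure D5:**
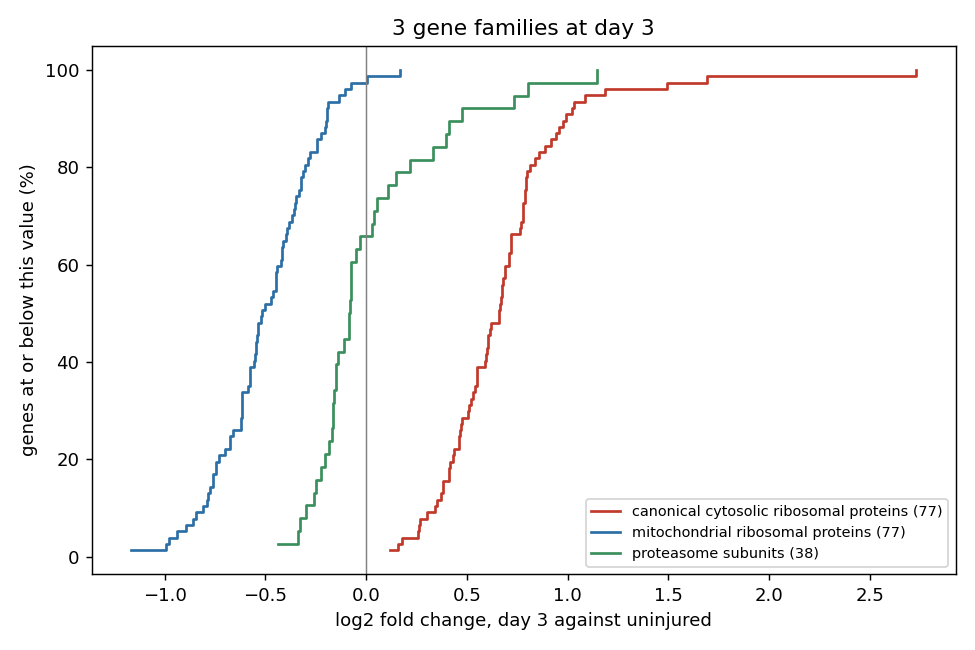
Cumulative share of the genes of 3 families (y axis, percent) at or below a given log2 fold change at day 3 against uninjured muscle (x axis). The canonical cytosolic ribosomal proteins lie wholly to the right of 0 with a median of 0.66, the proteasome subunits around -0.08 and the mitochondrial ribosomal proteins at -0.52, a median whose sign turned under the common sum and own totals, as did that of the proteasome (0.74 and 0.57).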

How the data were processed

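PolyA RNA of tibialis anterior muscle was sequenced from non-directional libraries in 27 samples, whose groups and replicate numbers were read from the titles. The authors aligned reads with HISAT2 2.0.5, counted them per gene with featureCounts 1.5.0-p3 and deposited FPKM with gene lengths; the build, annotation and treatment of reads with several matches are not given in the sources used here. Of the 94 members, 90 had the coordinates of GENCODE M21 (GRCm38). FPKM times gene length gave whole reads for 100% of values above 0 within a tolerance of 0.05, and these reads served only as depth and for one alternative. Precision depends on the reads per gene, given where they are few.

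FPKM was transformed to log2(FPKM + 1), so fold changes of low genes are understated. The 14630 genes that reached 0.5 FPKM in 5 or more samples entered one limma model (version 3.58.1, R 4.3.3) of all 27 samples with one coefficient for each group, a variance trend, two-sided tests and Benjamini-Hochberg adjustment per comparison at 0.05. Log2 fold changes are given ± SE. Paralog ratios were compared with exact permutation tests. On simulated data with 200 of 14630 genes changed by 1 on the log2 scale, limma recovered 72% at day 3 to 78% at day 14, with 7 to 12 false calls and 0 in the wrong direction. The highest correlation between samples was 0.984, so none was a copy of another.

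The members and gene lists were chosen with earlier results of these data known. Named genes were the paralog pairs, Fau and Rack1, the 5 canonical members with the most positive and the 5 with the most negative change at days 3 and 21, the highest and lowest canonical member, and the 3 called genes with the largest change of each list of other genes; others are marked, and 1 gene that the rule names is not reported here. Alternatives were a pseudocount of 0.1, no filter, a minimum FPKM of 1, a common sum (TPM), own totals of reads, quantile normalization, no trend, voom weights, blocks by replicate number or letter, only the compared groups, and each sample left out. A further alternative, chosen after seeing the data, left out day 7 replicate 1 and day 14 replicate 1 together. Python 3.11.15, pandas 2.3.3, numpy 2.4.6, scipy 1.17.1 and matplotlib 3.10.9 were used. Sequences came from the RefSeq promoter table (GRCm38.p6), and no protein sequence was used here.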

Additional observations from a re-analysis of the deposited data

Results flagged for a closer look

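Samples far from the rest of their group were found for the family median, on the scale of log2(FPKM + 1). Day 3 replicate 5 was lowest at 7.699, day 7 replicate 1 at 7.132 and day 14 replicate 1 at 6.427, each set apart by Dixon's ratio (0.7348, 0.6763 and 0.703). Rpl3l at day 21 was lowest in replicate 2 at 342.5 FPKM (ratio 0.7618). Among the 25 groups of values tested in this way, chance flags about 1 in 20.

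Differences between time points, tested directly with limma as day 21 minus day 3 on the log2 scale, were below 0 for Rpl3 (-1.454), Rpl17 (-1.065), Rpl41 (-1.058), Rpl13a (-0.9391), Rps4x (-0.7367), Rpl15 (-0.6591), Rpl10 (-0.5552) and Rpl7l1 (-0.3439), and above 0 for Rpl3l (1.256). All of these had an adjusted p under 0.05 in the deposited scaling with all samples. Of 39 alternatives, 12 lost the call of Rpl10 (adjusted p up to 0.124), 6 that of Rpl41 (up to 0.134), 4 each those of Rpl17 and Rpl7l1, and 3 each those of Rpl15 and Rpl3l, whereas the calls of Rpl3, Rpl13a and Rps4x passed under all 39.

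Outside the protein-coding table rows, 297 rows annotated as ribosomal protein pseudogenes took a mean of 0.1858% of reads at day 3, 0.139% at day 7 and 0.09829% at day 21, against 0.0689 to 0.0798% in the uninjured muscles. Their reads came to 3.47 to 4.31% of the members' reads in all 27 samples.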

How the results depend on the processing

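Scaling between samples mattered most. With FPKM rescaled to a common sum (TPM), with own totals of reads and with quantile normalization, the members called higher were 79, 78 and 70 at day 7, 26, 26 and 25 at day 14, and those lower at day 21 against day 3 were 84, 80 and 68; at day 3 the first pair gave 87 and 87, and at day 21 0 and 0. No member was lower at day 14 under these 3 (0), and TPM gave 0 higher at day 21 against day 3. Over all 14630 genes the 3 scalings called 6372, 5348 and 1700 higher at day 7 and 2096, 2275 and 1007 at day 14. At day 21 against day 3 they called 4872, 4484 and 2105 genes lower. TPM and own totals called 6942 and 6534 genes higher at day 3 and 64 and 106 at day 21. Canonical medians under the 3 were 1.48, 1.32 and 0.97 at day 3, 1.03, 0.85 and 0.69 at day 7, and 0.55, 0.45 and 0.38 at day 14, and under TPM and own totals -1.07 and -0.91 at day 21 against day 3. Relative to the family, 9, 11 and 14 members were lower at day 3 and 7, 9 and 10 at day 7. In the deposited scaling, 51.1% and 21.8% of all genes were lower relative to the family on these days. The shares of all genes under the 3 scalings are not reported here. Quantile normalization gave 4 members higher and 4 lower relative to the family at day 14, and TPM and own totals 0 higher at day 21. The direction turned under TPM and own totals for Rps27l at day 3 (0.68, 0.52), Rpl7l1 at day 14 (0.14, 0.066) and Maf1 at day 21 against day 3 (-0.18, -0.022), under TPM alone for Maf1 at day 7 (0.0050) and Rpl36 at day 21 against day 3 (-0.60), and with a pseudocount of 0.1 for the ratio of Rpl36al to Rpl36a at day 3 (0.21). The median of all genes moved to 0.62 and 0.40 at day 3 under TPM and own totals.

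Without a filter, 2 members were higher at day 7, 0 lower at day 14 and 0 higher relative to the family at day 21. Voom weights gave 0 lower at day 14 and, relative to the family, 2 higher and 7 lower at day 3 and 0 higher at day 21, where limma without the trend also gave 0. A pseudocount of 0.1 gave 2 higher relative to the family at day 14. With only the compared groups, 3 were higher and 0 lower at day 7, 2 higher at day 14, 2 higher at day 21, 42 lower at day 21 against day 3, and, relative to the family, 7 lower at day 3, 1 at day 14 and 1 at day 21. Without both low samples, 33 were higher at day 7, 19 higher and 0 lower at day 14, 49 lower at day 21 against day 3, and, relative to the family, 7 higher and 8 lower at day 3, 4 and 5 at day 7, and 3 and 3 at day 14. For the settings of this paragraph, the shares of all genes called are not reported here. The causes were not tested.

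Uninjured samples and injured samples of the same number were weakly correlated (-0.30 to 0.14, 1 of 20 over 0.1). Injured groups were not set against each other, so this cannot settle whether the numbers pair the samples. With a replicate block, 3 members were higher at day 7, 2 lower at day 14 and 1 lower relative to the family at day 14. A replicate block by letter gave 2 and 1 at day 14 and 0 higher at day 21 against day 3. The shares of all genes called with these blocks are not reported here.

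Leaving out each sample in turn gave 40 to 64 members higher at day 3, 2 to 16 at day 7 (16 without day 14 replicate 1, 14 without day 7 replicate 1, 8 without uninjured replicate 3, 3 without uninjured replicate 1, and 2 without uninjured replicate 2, 4 or 5 or day 7 replicate 4 or 5), 1 to 11 at day 14 (11 without day 14 replicate 1, 2 without day 7 replicate 5) and 1 to 2 at day 21 (2 without day 7 replicate 5); 0 to 1 were lower at day 14, and 0 to 1 higher (0 without day 3 replicate 4) and 8 to 42 lower at day 21 against day 3. The member lower at day 14 was lost in 16 of the 27 omissions. The share of all genes called under each omission is not reported here. Relative to the family, 2 to 6 were higher (2 without uninjured replicate 1 or day 3 replicate 3 or 4) and 2 to 7 lower at day 3 (2 without uninjured replicate 4 or day 3 replicate 1, 7 without day 14 replicate 1), 1 to 2 higher (1 without uninjured replicate 5 or day 7 replicate 5) and 2 to 6 lower at day 7 (6 without day 14 replicate 1, 4 without day 7 replicate 1), 0 to 3 lower at day 14 and 0 to 1 higher at day 21. The canonical medians ranged from 0.58 to 0.72 on day 3, from 0.22 to 0.41 on day 7, from -0.03 to 0.28 on day 14 and from 0.14 to 0.25 on day 21. Over all results with a count or a median, 810 values under an alternative stayed within the limits set and 133 moved. Precision is lowest for Rps10, Rpl24, Rpl36al and Rpl39l, which have few reads.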

Other observations

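Another pair of translation genes with a muscle form was examined after its values had been seen. Eef1a2 is the form of elongation factor 1A used by adult muscle and neurons, and Eef1a1 the form used by most other cells. Eef1a1 lay between 112 and 136 FPKM without injury and between 551 and 1047 on day 3, and Eef1a2 between 715 and 1282 and between 341 and 635. Eef1a2 made up 85.8 to 92.0% of their summed FPKM in the uninjured muscles, 24.6 to 53.5% on day 3 and 29.6 to 75.0% on day 7. On day 14 its share was 44.2 to 75.9%, on day 21 it was 57.6 to 75.2%, and no injured sample reached the uninjured range. The log2 ratio of Eef1a2 to Eef1a1 was lower than in uninjured muscle by 3.44, 2.74, 2.41 and 1.79 at the 4 time points (two-sided exact permutation tests, adjusted p = 0.00794 at each). The macrophage and fibre marker sums given above also differed from uninjured at day 3 without overlap, and their part in this ratio was not tested.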
